A study of Rattus norvegicus with 69 samples.

Results

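The comparison of 72 h with 24 h of sleep deprivation (SD) rests on 36 arrays out of 69 in the series, namely 20 from animals deprived for 72 h (72SD) and 16 from animals deprived for 24 h (24SD). They were chosen by the duration in the sample titles. RNA came from the CA1 region of the hippocampus, dissected from male rats of the Fisher 344 strain aged 3 to 5 months, with 1 Affymetrix RGU34A array per animal. The 72SD animals, like the 24SD animals, were kept in pairs of cage mates on small platforms above water, where the loss of muscle tone during sleep ends with contact with water. The time spent there separated the groups. The arrays came in 2 cohorts of different animals, with 8 72SD and 8 24SD arrays in cohort 1 and 12 72SD and 8 24SD arrays in cohort 2, and the animals of cohort 1 had been trained on an avoidance task before SD. For reference there were 17 home cage (HC) arrays, 5 in cohort 1 and 12 in cohort 2. The 6 72NES and 10 24NES arrays, all of cohort 1, came from the stress control labelled NES, animals held in the same chamber for 72 h or 24 h with a grid over the platforms that allowed sleep.

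Sleep loss engages several programs whose messages respond on different time scales. Stress hormone released by the adrenal gland acts through the glucocorticoid receptor on genes such as Sult1a1 and Klf9, the circadian clock runs through feedback of Per and Cry proteins on their own transcription, and prolonged wakefulness loads the machinery for protein synthesis and folding. CA1 is the output field of the hippocampus and is needed for memory of places and events. Its pyramidal neurons receive glutamate and are held in check by GABA from interneurons. The question here was which of these functions had moved further, or had moved back, by 72 h.

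Signals were on a linear scale with every array scaled to the same mean, so a signal compares animals for 1 gene and does not compare genes. The GAPDH 3′/5′ ratio, a measure of RNA integrity that rises with degradation, averaged 1.01 ± 0.0807 in 72SD and 1.01 ± 0.0406 in 24SD of cohort 1, and 1.08 ± 0.0425 in 72SD and 1.06 ± 0.0552 in 24SD of cohort 2 (SD). The signals of the 6 measured markers of CA1 pyramidal cells had a sum between 32868 and 39342 in 72SD and between 34257 and 40726 in 24SD of cohort 1. For cohort 2 the sum was between 22035 and 32532 in 72SD and between 24781 and 27642 in 24SD. In these markers the cohorts lay further apart than the durations, and cohort was a term in the fits over both, except where it was left out as an alternative. Markers of other cells were also measured. For the 4 measured markers of dentate granule cells the sum was between 5828 and 8827 in 72SD and between 7046 and 8073 in 24SD of cohort 1, and between 6772 and 10090 in 72SD and between 7134 and 11190 in 24SD of cohort 2. Transthyretin (Ttr), the main secretory product of the choroid plexus, was at 25272 on 24SD array 32 of cohort 2, against 1501 on the next of the 36 arrays. Because the tissue held many cell types, fewer cells of a type and less RNA per cell cannot be told apart.

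No gene passed the adjusted test between 72SD and 24SD. Of 2696 genes, 0 (0% called) reached an adjusted p of 0.05 in limma, and 112 (4.15%) had an unadjusted p under 0.05. Of those, 68 (2.52% of genes tested) were higher and 44 (1.63%) were lower at 72SD. That split depended on scaling, since centring each array on its median gave 49 higher and 67 lower, and quantile normalization gave 63 higher and 58 lower. The analysis of variance in the study's methods, in a form for 2 groups, called 2 genes (Sult1a1 and Tnfsf13) once values far from their group mean had been removed. That removal set 3.91% of values missing. It narrows the spread within groups and so lowers p by itself, which makes these 2 calls weak. Each animal was treated as independent, although they were housed as pairs that the labels leave unnamed.

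The differences were also small. The median difference over all genes was 0.01 on the log2 scale and the median absolute difference was 0.05, with a median SE of 0.07. For 2049 genes (76.0%) the 95% confidence interval of the difference lay within 0.25 log2 units of 0 in both directions, and for 2658 genes (98.6%) it lay within 0.5. In the other genes the interval reached past that bound, so a larger difference was not excluded by these arrays. Against HC, the fit over 53 arrays called 1 gene at 72SD (0.0371%) and 39 at 24SD (1.45%). Those contrasts share their arrays with the one between durations, and the difference between durations itself passed the test for no gene.

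The gene with the smallest p was Tnfsf13, which encodes the cytokine APRIL, a ligand of the tumor necrosis factor family known for keeping B cells and plasma cells alive. In cohort 1 its signal ran from 1629 through a median of 2032 to 2619 in 72SD, and from 1490 through 1647 to 1812 in 24SD. In cohort 2 it ran from 1840 through 2291 to 2963 in 72SD, and from 1761 through 1969 to 2555 in 24SD. The ranges overlapped in both cohorts, but 18 of 20 72SD arrays lay above the 24SD median of their cohort, and 6 of 8 in cohort 1 and 2 of 12 in cohort 2 lay above every 24SD array of their cohort. The difference was 0.26 ± 0.06 on the log2 scale (SE; a ratio of 1.19; adjusted p = 0.199, limma), with 0.29 in cohort 1 and 0.23 in cohort 2. Relative to HC the gene was 0.15 higher at 72SD and 0.11 lower at 24SD, both short of the test. Leaving out 24SD array 30, whose signal of 2555 was the highest of its group, brought the adjusted p to 0.0244, and leaving out 72SD array 52 brought it to 0.0448. Both other probe sets for the gene gave 0.11 ± 0.13 and 0.06 ± 0.12.

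**Figure D1:**
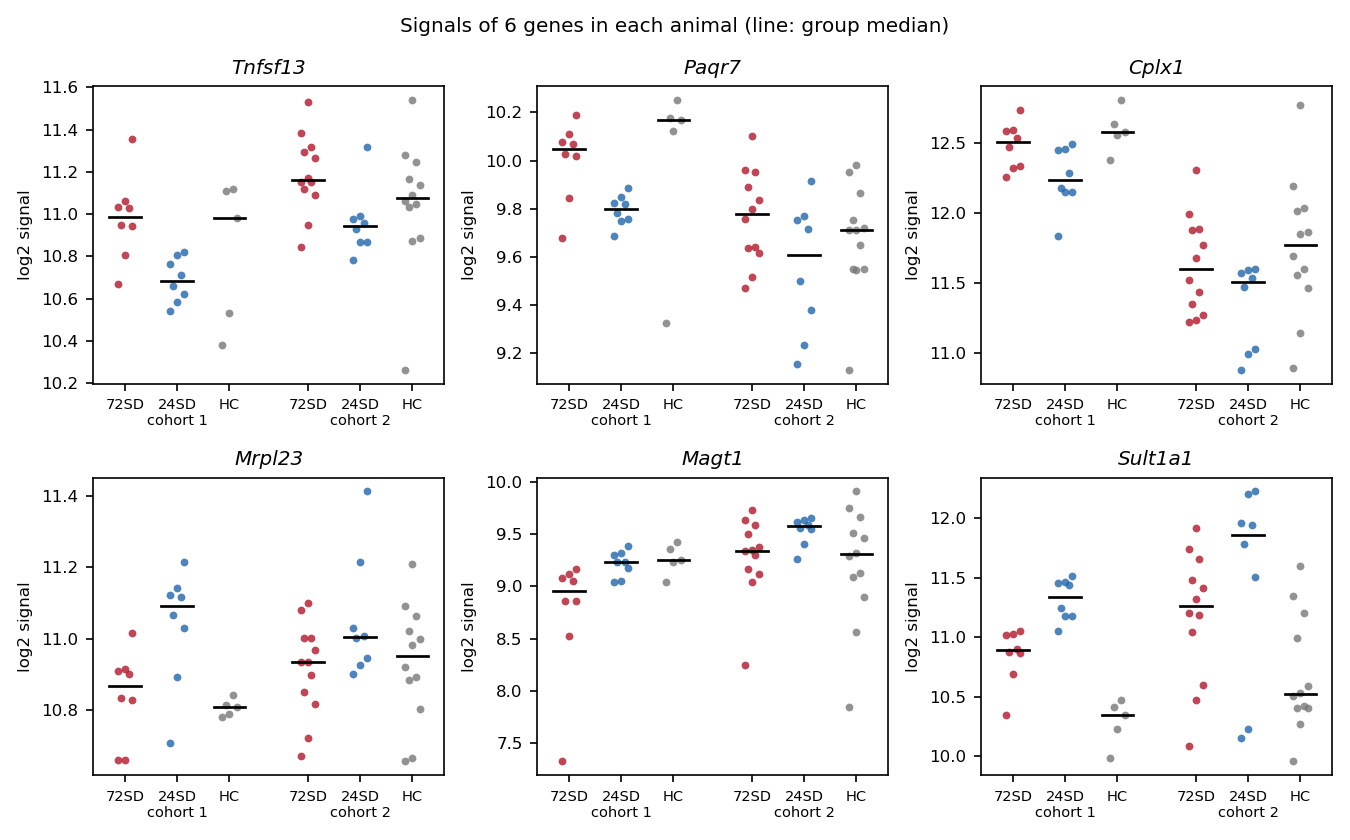
Log2 signals of 6 genes in each 72SD, 24SD and HC animal (1 point per array, black line at the group median, cohorts side by side). The 72SD points for Tnfsf13, Paqr7 and Cplx1 lie mostly above the 24SD points of the same cohort and those for Mrpl23, Magt1 and Sult1a1 mostly below, with overlap in every panel.

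The 12 genes with the smallest p among those higher at 72SD in each cohort had differences of 0.14 to 0.29, and between 15 and 18 of 20 72SD arrays lay above the 24SD median of their cohort. None passed the adjusted test (adjusted p = 0.915 for all but Tnfsf13). Several encode proteins of neuronal signalling. Cplx1 (complexin 1), which clamps and primes the SNARE complex for vesicle release, had a median signal of 5799 (range 4894 to 6805) in 72SD, against 4811 (3658 to 5757) in the 24SD arrays of cohort 1. In cohort 2 its median was 3107 (2391 to 5071) in 72SD, against 2908 (1887 to 3108) in 24SD. In both cohorts the upper 72SD arrays, 4 and 6 of them, passed every 24SD array, while the rest lay among the 24SD values. The difference was 0.26 ± 0.09.

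Grin2d, a subunit of NMDA type glutamate receptors that slows their decay, was at a median of 656 (586 to 770) in 72SD, against 596 (575 to 638) in the 24SD arrays of cohort 1. In cohort 2 the medians were 461 (359 to 532) in 72SD, against 392 (348 to 458) in 24SD. This gave 0.15 ± 0.05, with 17 of 20 72SD arrays above the 24SD median, but a second and dimmer probe set gave 0.00 ± 0.10. Ncs1, a neuronal calcium sensor, differed by 0.20 ± 0.07 (0.36 in cohort 1 and 0.08 in cohort 2), and by 0.04 ± 0.11 on a dimmer probe set. Gna12, the alpha subunit of a heterotrimeric G protein, differed by 0.22 ± 0.08, with 18 of 20 72SD arrays above the 24SD median. Its second probe set gave 0.15 ± 0.08.

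Other leading genes act outside the synapse. Paqr7, a membrane receptor for progestins, was at a median of 1058 (820 to 1168) in 72SD, against 892 (825 to 948) in 24SD of cohort 1, and at 878 (710 to 1100) in 72SD, against 782 (570 to 965) in 24SD of cohort 2. Its difference of 0.21 ± 0.06 was alike in size in cohort 1 (0.21) and cohort 2 (0.21). Nrarp, a feedback inhibitor of Notch signalling, showed the largest difference of the 12, 0.29 ± 0.08, with 0.13 in cohort 1 and 0.42 in cohort 2. Vegfb, a growth factor of the VEGF family, differed by 0.21 ± 0.07. Opa1, the GTPase that fuses the inner mitochondrial membrane, differed by 0.21 ± 0.07. Emerin (Emd), a protein of the inner nuclear membrane, differed by 0.25 ± 0.08, and by 0.13 ± 0.17 on a dimmer probe set. The list ends with the phospholipid flippase Atp9a (0.14 ± 0.05, and 0.20 ± 0.07 on its second probe set) and the tenascin pseudogene Tnxa-ps1 (0.25 ± 0.08), whose probes cannot be told apart here from its near-identical parent genes. A second and dimmer probe set for Tnxa-ps1 went the other way, at -0.31 ± 0.23. Of the 12, 11 were below HC at 24SD and 7 at 72SD. The genes were chosen for 72SD values above those of the same 24SD arrays, which favours low values at 24SD. The same share over all genes was not counted, so these counts do not show a response that returned toward HC. For Cplx1 the values relative to HC were -0.12 at 72SD and -0.39 at 24SD, for Gna12 -0.08 and -0.30 in that order, and for Grin2d -0.10 and -0.26. At 24SD, Grin2d (adjusted p = 0.0301, limma) and Gna12 (adjusted p = 0.0375) passed the test against HC, and none of the 12 did at 72SD.

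The 12 genes that led in the other direction were lower at 72SD by 0.11 to 0.46, again with adjusted p = 0.915 for each. Mrpl23, a protein of the large mitochondrial ribosomal subunit, was at a median of 1868 (1616 to 2069) in 72SD, against 2181 (1670 to 2376) in the 24SD arrays of cohort 1. In cohort 2 it was at 1957 (1628 to 2195) in 72SD, against 2053 (1910 to 2730) in 24SD. Only 2 of 20 72SD arrays lay above the 24SD median of their cohort, and the difference was -0.17 ± 0.05. Magt1, a magnesium transporter that also serves N-glycosylation in the endoplasmic reticulum, differed by -0.35 ± 0.12. One array weighed on that value, since 72SD array 36 was at a signal of 161 in a group whose median was 497, against a median of 602 (526 to 667) in 24SD of cohort 1.

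Dusp7, a phosphatase that inactivates ERK kinases, had the widest gap at -0.46 ± 0.17 but also wide groups. It ran from 216 through 492 to 664 in 72SD and from 490 through 565 to 679 in 24SD of cohort 1, and from 204 through 396 to 780 in 72SD and from 361 through 635 to 765 in 24SD of cohort 2. The lowest values were from 72SD animals in both cohorts, while 14 of 20 lay below the 24SD median. Gsto1, a glutathione transferase of the omega class, differed by -0.13 ± 0.05 and by -0.16 ± 0.07 on a second probe set. Ssr4, part of the translocon-associated complex through which new proteins enter the endoplasmic reticulum, differed by -0.17 ± 0.06, by -0.18 ± 0.07 on a second probe set and by 0.05 ± 0.09 on the third.

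The remaining leaders were Gtf2a2 (-0.21 ± 0.08), a subunit of the general transcription factor TFIIA, and Ssbp1 (-0.15 ± 0.06), which binds single stranded mitochondrial DNA. Zranb2 (-0.11 ± 0.04) takes part in splicing, Bag6 (-0.21 ± 0.08) escorts misplaced proteins to degradation, and Cav1 (-0.23 ± 0.09) forms caveolae, mainly in endothelium. Cnksr2 (-0.15 ± 0.06), a postsynaptic scaffold of Ras signalling, gave -0.08 ± 0.09 and 0.03 ± 0.06 on its dimmer probe sets. Plcl1 (-0.14 ± 0.06), which traffics GABA-A receptors, likewise gave 0.12 ± 0.10 and -0.02 ± 0.08 on its other probe sets. All 12 genes were above HC at 24SD and 5 were at 72SD. Here too the choice of genes favours high values at 24SD, so the counts do not show a response that returned toward HC. For Gtf2a2 the values relative to HC were 0.09 at 72SD and 0.29 at 24SD, for Gsto1 0.13 and 0.26 in that order, and for Dusp7 -0.05 and 0.42. Gsto1 alone of the 12 passed the test against HC, at 24SD (adjusted p = 0.0411, limma).

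Both cohorts were tested alone. In cohort 1, 0 genes were called by limma and 110 (4.08%) had an unadjusted p under 0.05 (78 higher and 32 lower at 72SD). In cohort 2, 0 genes were called and 117 (4.34%) had an unadjusted p under 0.05 (64 higher and 53 lower). Of the 110 genes of cohort 1, 68 (61.8%) had the same sign in cohort 2, and of the 117 of cohort 2, 64 (54.7%) had the same sign in cohort 1, against 52.6% of all genes. In both cohorts 5 genes were under 0.05, Tnfsf13, Paqr7, Cplx1 and Tnxa-ps1 in the same direction and Ddx46 in opposite directions. Unrelated lists with shares of 4.08% and 4.34% would share about as many genes, so the overlap does not show replication. Across the 2696 genes, which are not independent replicates, the differences of the cohorts had a Pearson correlation of 0.105 and a Spearman correlation of 0.0931.

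**Figure D2:**
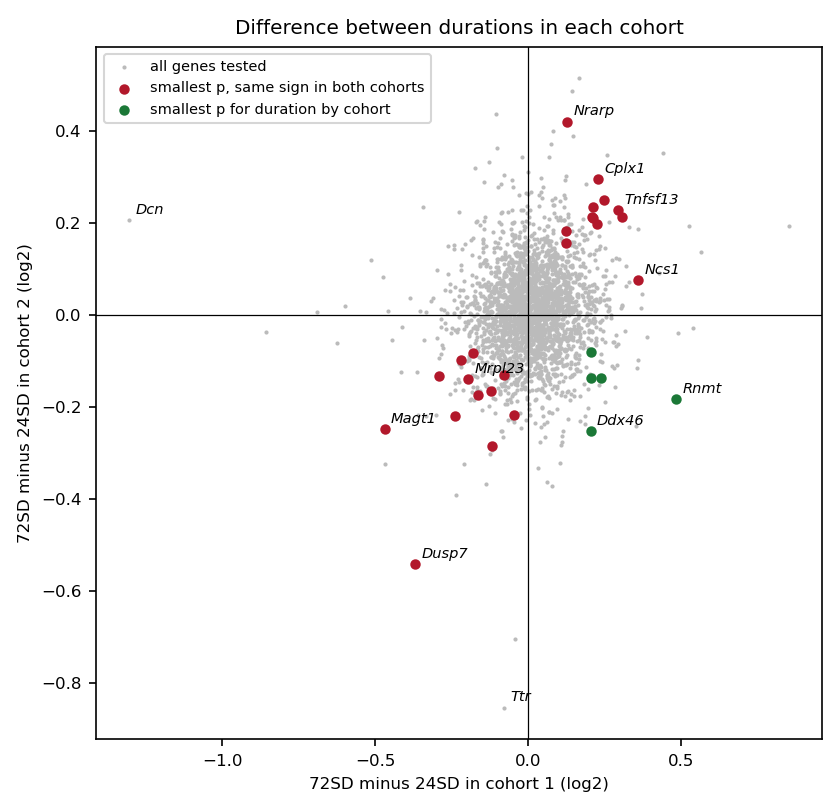
The log2 difference of 72SD minus 24SD in cohort 1 (x axis) against cohort 2 (y axis), 1 point per gene. Red points are the 24 leading genes, which were chosen for having the same sign in both cohorts, and green points are the 5 genes with the smallest p for duration by cohort; all genes together form a nearly round cloud (r = 0.105), with Dcn and Ttr far out in 1 cohort each.

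The difference between cohorts was itself tested, and 0 genes were called in limma (95, or 3.52%, at an unadjusted p under 0.05; smallest adjusted p = 0.996). The gene with the smallest p was Rnmt, which caps the 5′ end of mRNA. It was at a median of 981 (738 to 1245) in 72SD, against 720 (481 to 891) in 24SD of cohort 1, but at 621 (499 to 1006) in 72SD, against 731 (587 to 907) in 24SD of cohort 2. Its difference was 0.48 ± 0.15 in cohort 1 and -0.18 ± 0.11 in cohort 2. The RNA helicase Ddx46 (0.20 in cohort 1 and -0.25 in cohort 2), the RNA export adaptor Phax (0.20 and -0.08 in that order), Jtb (0.21 and -0.14) and the latrophilin Adgrl3 (0.24 and -0.14) followed. Dcn, the matrix proteoglycan decorin made by meningeal and perivascular cells, differed by -1.30 in cohort 1 and 0.21 in cohort 2. In cohort 1 it was at a median of 544 in 72SD, with arrays 36 and 43 at 108 and 116, and at 866 in 24SD. Ttr had the largest difference of all genes over both cohorts (-0.50 ± 0.36), and without 24SD array 32 it was -0.12.

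**Figure D3:**
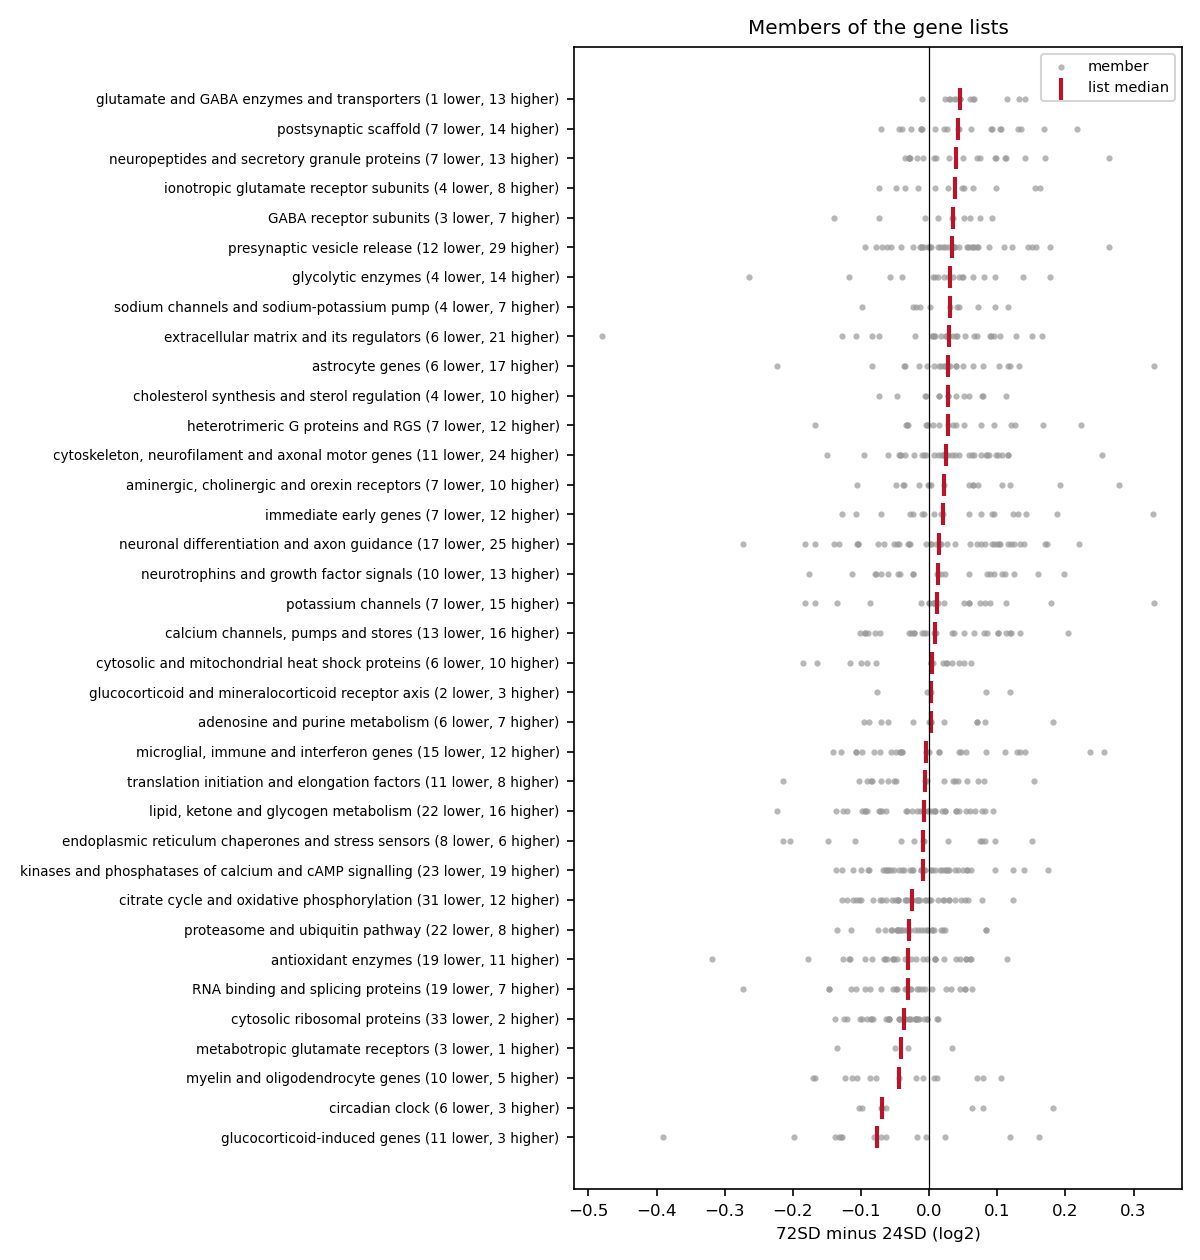
Difference of 72SD minus 24SD on the log2 scale (x axis) for each measured member of 36 gene lists (gray points), ordered by the list median (red line), with the number of members lower and higher at 72SD beside each name. Medians run from -0.08 for glucocorticoid-induced genes to 0.05 for glutamate and GABA enzymes and transporters, while single members spread far more.

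No list held a gene that passed the adjusted test, so lists are given by counts and medians, beside 45.3% of all genes lower and 54.7% higher at 72SD. The lists of the synapse differed in their counts. Of 14 enzymes and transporters of glutamate and GABA, 13 were higher (median 0.05; 10 in cohort 1 and 13 in cohort 2), but none had an unadjusted p under 0.05. They include the glutaminase Gls2 (0.11 ± 0.06), the GABA synthesizing enzyme Gad2 (0.14 ± 0.09) and the GABA transporter Slc6a11 (0.13 ± 0.09). Of 41 genes for presynaptic vesicle release, 29 were higher (median 0.03), among them Cplx1, the vesicle priming factor Unc13a (0.18 ± 0.08) and the SNARE disassembling ATPase Nsf (0.16 ± 0.08). The count for this list fell to 21 of 41 with cohort left out of the model. Of 21 postsynaptic scaffold genes, 14 were higher (15 in cohort 1 and 10 in cohort 2), with Synpo, a protein of the spine apparatus, at 0.17 ± 0.09.

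Of 12 ionotropic glutamate receptor subunits, 8 were higher. Besides Grin2d, the obligatory NMDA receptor subunit Grin1 differed by 0.16 ± 0.07, while the AMPA receptor subunit Gria2 differed by -0.07 ± 0.06. Of 4 metabotropic glutamate receptors, 3 were lower (median -0.04). Among 10 GABA receptor subunits 7 were higher (7 in cohort 1 and 4 in cohort 2), but Gabrb1 was at -0.14 ± 0.07. In the list of aminergic, cholinergic and orexin receptors 10 of 17 were higher and 3 had an unadjusted p under 0.05, all higher, namely the beta adrenergic receptor Adrb3 (0.28 ± 0.12), the nicotinic receptor subunit Chrna7 (0.19 ± 0.09) and the dopamine receptor Drd5 (0.12 ± 0.06). Relative to HC, Chrna7 was at -0.13 at 72SD and -0.32 at 24SD. The neuropeptide Vip, made by a class of interneurons, differed by 0.26 ± 0.11 and was 0.37 above HC at 72SD and 0.10 above it at 24SD. Of 9 interneuron markers 7 were higher (9 in cohort 2 and 5 in cohort 1), and their part in these values was not tested.

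Genes induced by glucocorticoids had the lowest median of the 36 lists other than cell markers. Of 14 measured, 11 were lower at 72SD (median -0.08; 9 in cohort 1 and 10 in cohort 2), and 2 had an unadjusted p under 0.05, both lower. Sult1a1, a phenol sulfotransferase that inactivates catechols and steroids, was at a median of 1898 (1303 to 2123) in 72SD, against 2602 (2120 to 2927) in the 24SD arrays of cohort 1. In cohort 2 it was at 2460 (1086 to 3868) in 72SD, against 3734 (1141 to 4807) in 24SD. In cohort 1, 7 of 8 72SD arrays lay below every 24SD array, whereas in cohort 2 the groups overlapped down to their lowest arrays. The difference was -0.39 ± 0.16 (a ratio of 0.763), and only 1 of 20 72SD arrays lay above the 24SD median of its cohort. Relative to HC it was 0.51 higher at 72SD and 0.90 higher at 24SD.

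Klf9, a transcription factor and direct target of the glucocorticoid receptor, was at a median of 7148 (6314 to 8054) in 72SD, against 7758 (6664 to 8427) in the 24SD arrays of cohort 1. In cohort 2 it was at 7917 (6814 to 9787) in 72SD, against 9765 (6844 to 11632) in 24SD. The groups overlapped, yet 18 of 20 72SD arrays lay below the 24SD median of their cohort, and the difference was -0.13 ± 0.06. The kinase Sgk1 (-0.20), the cell cycle inhibitor Cdkn1a (-0.14) and Cebpb (-0.13), all in the list, were lower without reaching that threshold, and Cebpd (0.16) and Fkbp4 (0.12 ± 0.06), a cochaperone of the receptor, were higher. Fkbp4 lay 0.11 above HC at 72SD and 0.01 below it at 24SD. As a list the genes had a median of 0.12 above HC at 72SD and 0.16 at 24SD.

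Of 9 clock genes, 6 were lower and 3 higher (median -0.07). The casein kinase Csnk1d, which phosphorylates Per proteins, differed by 0.18 ± 0.08 and was the only one with an unadjusted p under 0.05. Per2, which feeds back on the clock and also responds to stress hormone, was at a median of 858 (706 to 1071) in 72SD, against 810 (554 to 1003) in 24SD of cohort 1, and at 1154 (974 to 1540) in 72SD, against 1130 (842 to 1433) in 24SD of cohort 2. The groups overlapped over most of their range, with a difference of 0.06 ± 0.07. Immediate early genes, transcribed within minutes of neuronal firing, were split. In cohort 1, 18 of 19 were higher at 72SD (median 0.11) and in cohort 2 only 7 were (median -0.05). Nr4a2, an orphan nuclear receptor, was the only one with an unadjusted p under 0.05 over both cohorts (0.19 ± 0.07, with 0.33 in cohort 1 and 0.07 in cohort 2). Fos itself differed by 0.02 and Arc by 0.13. Whether this list differed between the cohorts was tested only gene by gene, with no gene called.

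The 6 probe sets named Homer1, a postsynaptic scaffold with long and short forms, gave differences from -0.08 ± 0.08 to 0.24 ± 0.11, and the sources used here do not say which form each probe set reads. The brightest was at a median of 3354 (3188 to 4045) in 72SD, against 3234 (2968 to 3433) in 24SD of cohort 1, and at 4249 (3449 to 5113) in 72SD, against 4612 (3816 to 5115) in 24SD of cohort 2. Its difference was 0.10 in cohort 1 and -0.10 in cohort 2. The second brightest, at a mean signal of 3040 against 3791, gave 0.24 ± 0.11 (unadjusted p = 0.0389, limma). A dimmer one, at 682, gave 0.18 ± 0.09, and the rest lay between -0.08 and 0.00. Values by cohort are given only for the brightest. The paper, with HC in its test, reports a linear rise of Homer1 as SD is extended. Ifrd1, a transcriptional coregulator, differed by 0.12 ± 0.08 and lay 0.29 above HC at 72SD and 0.19 above it at 24SD.

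Most cytosolic ribosomal protein genes, which encode the particle that makes proteins, had lower values at 72SD. Of 35 cytosolic ribosomal protein genes, 33 were lower at 72SD and 2 were higher, Rps9 and Rps23 (0.01 each). The median was -0.04, or a few percent, and only Rpl18 (-0.12 ± 0.05) and Rpl24 (-0.10 ± 0.05) had an unadjusted p under 0.05. Rpl18 was at a median of 5193 (4107 to 6512) in 72SD, against 5669 (5010 to 7826) in 24SD of cohort 1, and at 6497 (5856 to 7167) in 72SD, against 6921 (5819 to 7518) in 24SD of cohort 2. The groups overlapped in both cohorts, although only 3 of 20 72SD arrays lay above the 24SD median. Of the 35 genes, 29 were lower in cohort 1 (median -0.08) and 21 in cohort 2 (median -0.02). Relative to HC the list median was 0.03 at 72SD and 0.10 at 24SD. Ribosomal messages are abundant, and of the 674 brightest genes 52.2% were lower, against 40.4% of the 674 dimmest. The part of signal strength in the ribosomal count was not tested. Between 28 and 33 of the 35 stayed lower when single arrays were left out, and 30 did after quantile normalization.

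**Figure D4:**
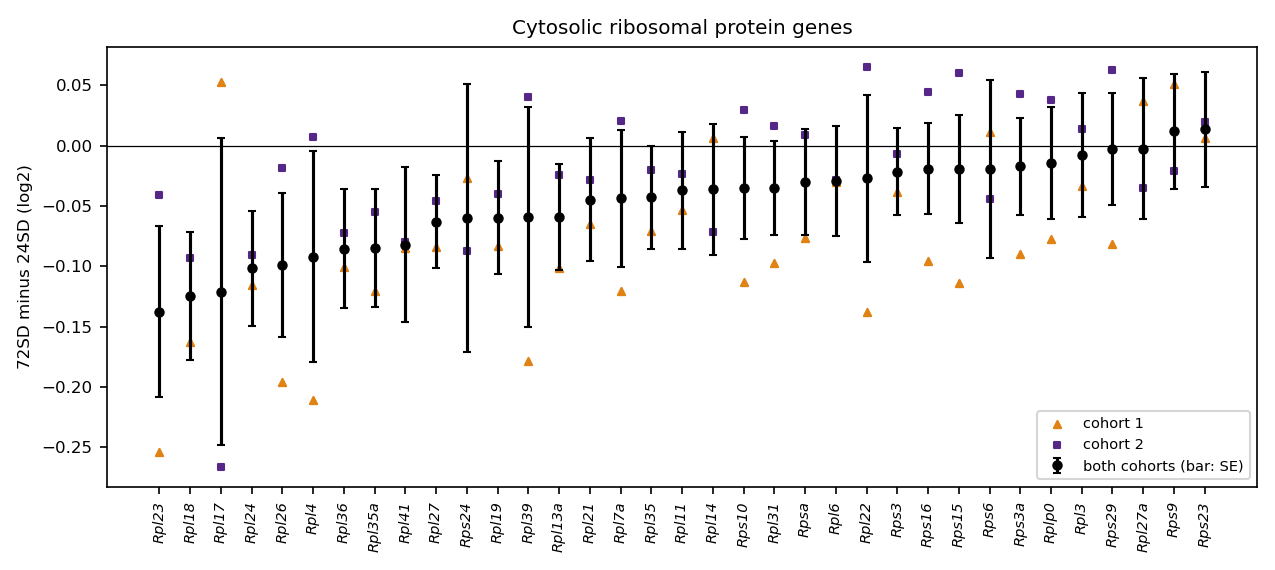
Difference of 72SD minus 24SD on the log2 scale for 35 cytosolic ribosomal protein genes, ordered from lowest to highest (black points with SE bars for both cohorts, orange triangles for cohort 1, purple squares for cohort 2). All but 2 black points lie below 0, most within 0.1 of it, and the cohort 1 values lie lower than those of cohort 2 for most genes.

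Ribosomal protein messages share a start that is known for tying their translation to mTOR, the kinase that senses growth factors and nutrients. Their transcripts begin at a C that is followed by C or T only. In the RefSeq promoters of the rat GRCr8 assembly, 33 of the 35 genes were found, and 17 of those had a C followed by at least 5 bases that were C or T, read on the coding strand and beginning within 5 bases of the annotated start. The same run was present in 9.41% of 2242 genes tested that had a promoter sequence and in 9.91% of all 33469 promoters. To show the shared feature, the 4 genes with the run and the smallest p are printed from 15 bases before the annotated start to 15 after it, with the run in capitals.
Rpl23 (chr10:83272170-83272199, minus strand): actaacttcctttctgaCTCTTTCCggacg
Rpl35a (chr11:81235007-81235036, minus strand): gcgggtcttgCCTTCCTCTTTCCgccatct
Rpl19 (chr10:83519049-83519078, plus strand): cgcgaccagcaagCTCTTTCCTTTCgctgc
Rpl4 (chr8:73566462-73566491, plus strand): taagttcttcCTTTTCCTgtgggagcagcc
These 4 genes differed by -0.14 ± 0.07 (Rpl23), -0.08 ± 0.05 (Rpl35a), -0.06 (Rpl19) and -0.09 (Rpl4). For Rpl4 the bases just before the capitals are also C or T. Its capitals mark only the part that begins within the 5 bases searched before the annotated start. Rpl18 and Rpl24 had no such run in this window, and a match is a description of the letters only.

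The next 4 lists also had more members lower than higher. Of 26 RNA binding and splicing proteins, 19 were lower (median -0.03) and 3 had an unadjusted p under 0.05, all lower. They were Zranb2, the splicing regulator Celf1 (-0.15 ± 0.07) and Ybx3 (-0.27 ± 0.13), a cold shock domain protein. Of 43 genes of the citrate cycle and oxidative phosphorylation, 31 were lower (median -0.03), with Cox5b of cytochrome oxidase at -0.13 ± 0.06. Of 30 proteasome and ubiquitin genes, 22 were lower (16 in cohort 1 and 24 in cohort 2) and none had an unadjusted p under 0.05. Among antioxidant enzymes 19 of 30 were lower, including catalase (Cat), which differed by -0.32 ± 0.15 over both cohorts but by -0.63 in cohort 1 and -0.06 in cohort 2.

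Translation factors and chaperones showed no common lean. Of 19 initiation and elongation factors, 11 were lower. Eif4ebp1, the mTOR target that restrains cap-dependent translation, differed by 0.15 ± 0.07, and Eif2ak3 (PERK), the kinase that halts translation when the endoplasmic reticulum is stressed, by -0.21 ± 0.10. Eif2ak3 lay 0.16 above HC at 72SD and 0.39 above it at 24SD. Of 14 chaperones and sensors of the endoplasmic reticulum, 8 were lower, and the collagen chaperone Serpinh1 was at 0.15 ± 0.07. Of 16 heat shock proteins 6 were lower, and the cochaperone Dnaja2 was at -0.17 ± 0.08. In glycolysis 14 of 18 genes were higher (median 0.03). Pfkfb3 and Pfkfb1, which set the level of the activator of phosphofructokinase, went in opposite directions (0.18 ± 0.09 and -0.26 ± 0.11 in that order).

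Glial and structural genes were mixed. Of 23 astrocyte genes, 17 were higher (11 in cohort 1 and 20 in cohort 2). The pump subunit Atp1b2 was at 0.12 ± 0.05, with 0.22 in cohort 1 and 0.03 in cohort 2. Ndrg2 was at 0.12 (-0.00334 and 0.22 in that order). Fabp7 was lower, at -0.22 (-0.13 and -0.30). The potassium channel Kcnj10 was at 0.33 ± 0.19 (0.56 and 0.14), and at -0.34 relative to HC at 72SD and -0.69 at 24SD. Of 15 myelin and oligodendrocyte genes, 10 were lower (median -0.04; 8 in cohort 1 and 8 in cohort 2) and none had an unadjusted p under 0.05. Sox10, the factor that specifies oligodendrocytes, was at -0.17 ± 0.09, with 0.03 in cohort 1 and -0.33 in cohort 2. Of 27 extracellular matrix genes, 21 were higher (17 after centring each array). Tau (Mapt), which binds axonal microtubules, differed by -0.15 ± 0.06 and the tubulin Tubb5 by 0.12 ± 0.05. Of the 4 dentate markers 1 was higher and 3 were lower, with Neurod1 at -0.18 ± 0.09 and Lct at 0.19 ± 0.07. Of the 7 CA3 and CA2 markers 4 were higher and 3 lower (4 higher in cohort 1 and 7 in cohort 2). The 2 of smallest p among these were Nnat at 0.22 ± 0.09 and Rgs14 at 0.17 ± 0.07. The share of neighbouring fields in the dissected tissue was not tested.

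The response to SD itself was compared at both durations in the 10 genes that passed limma's F-test of 72SD and 24SD against HC. All 10 kept their direction relative to HC at both durations. Besides Sult1a1 and Per2, the genes above HC were Wfdc1, a secreted protease inhibitor (0.41 at 72SD and 0.49 at 24SD), the retinol carrier Rbp4 (0.35 and 0.43 in that order), the neuropeptide precursor Tac3 (0.39 and 0.43), the interleukin 6 receptor Il6r (0.26 and 0.34), the adiponectin receptor Adipor2 (0.22 and 0.32) and Fryl (0.14 and 0.22). Those below HC were the guanine deaminase Gda (-0.23 at 72SD and -0.30 at 24SD) and the matrix protease Mmp14 (-0.38 and -0.52 in that order). In 9 of the 10 the value at 72SD was nearer to HC, Per2 being the exception. The F-test that chose the genes takes in their 24SD values, and 39 genes were called at 24SD against 1 at 72SD. Genes chosen in this way can be extreme at 24SD, so the count is no test of a return toward HC. The 72SD and 24SD values share the HC arrays, and none of the 10 differed between durations by the adjusted test.

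**Figure D5:**
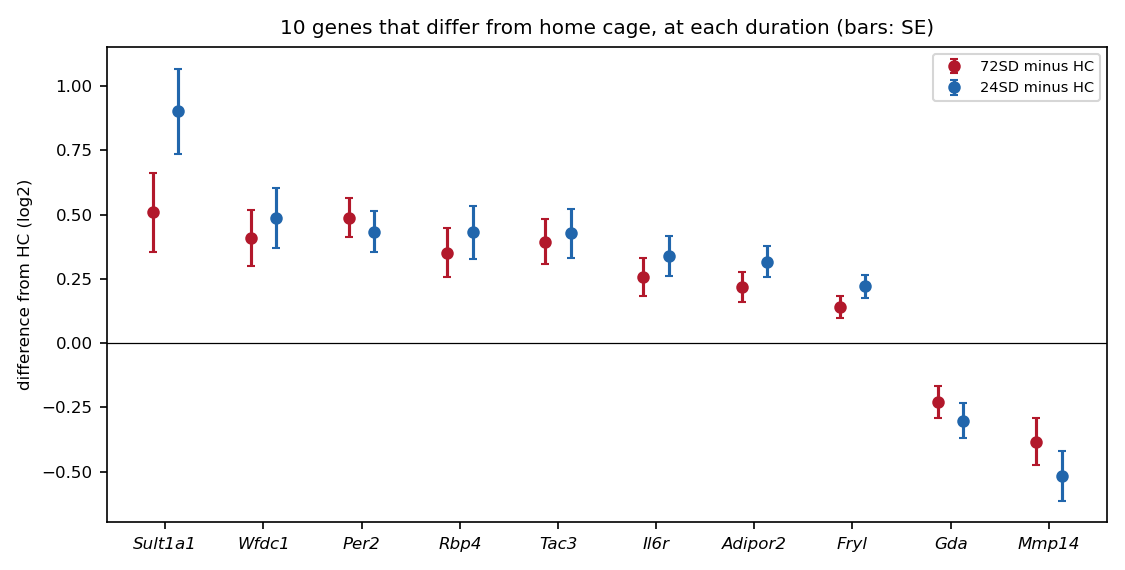
Log2 difference from HC of the 10 genes that passed the F-test, at 72SD (red, left of each pair) and 24SD (blue, right), with SE bars from the fit over 53 arrays. Each pair lies on the same side of 0, and the SE bars of most pairs overlap, with the widest gap for Sult1a1.

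Finally, time in the chamber was compared under SD and under NES, where the grid allowed sleep, in cohort 1. The paper's methods describe no measure of sleep in the NES animals. The 72NES and 24NES groups differed by 0 genes after adjustment in limma (283, or 10.5%, at an unadjusted p under 0.05, 178 higher and 105 lower at 72NES; smallest adjusted p = 0.16). The change with duration under SD minus that under NES was called for 0 genes (114, or 4.23%, at an unadjusted p under 0.05). Of the leading SD genes, 7 of the 12 higher and 10 of the 12 lower had the same sign in NES. The share of all genes with the same sign was not counted, so these counts do not show a drift shared with NES. Paqr7 differed by 0.21 ± 0.11 in SD of cohort 1 and by 0.48 ± 0.11 in NES, where its median was 1131 in 72NES and 798 in 24NES. Ssbp1 differed by -0.12 ± 0.10 in SD and by -0.46 ± 0.11 in NES, and Dusp7 by -0.37 ± 0.23 in SD and -0.69 ± 0.24 in NES. Tnfsf13 differed by 0.29 in SD and by 0.12 ± 0.10 in NES.

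The genes with the smallest p for SD against NES went in opposite directions. They were the LIM protein Crip2 (-0.10 ± 0.09 in SD and 0.32 ± 0.09 in NES), the synaptic adhesion molecule Cadm1 (0.21 ± 0.14 in SD and -0.43 ± 0.14 in NES), the O-GlcNAc transferase Ogt (0.15 ± 0.14 in SD and -0.50 ± 0.14 in NES), the TATA-binding protein Tbp (-0.16 ± 0.08 in SD and 0.21 ± 0.08 in NES) and the Ras GTPase activator Rasa1 (0.19 ± 0.13 in SD and -0.39 ± 0.13 in NES), with adjusted p = 0.943 for each. Ribosomal protein genes, lower in 29 of 35 in SD of cohort 1, were lower in 18 of 35 in NES (median -0.03). Across genes, which are not independent replicates, the duration differences under SD and NES had a Pearson r of 0.0976. SD animals of cohort 1 had been trained before SD, and the sources used here do not say that NES animals were.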

How the data were processed

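CA1 RNA was measured on 1 Affymetrix RGU34A array per animal. The deposited files hold MAS5 intensity on a linear scale, for which the authors had scaled each array as a whole. Of 8799 probe sets, 7006 had 1 gene symbol (4736 symbols), 308 had several, 1426 had none here and 59 were controls. Symbols were updated by gene number through RefSeq GRCr8 (6985 of 7006 matched). Signals were set to at least 1 and log2 transformed. Probe sets in the upper 50% of mean signal over 69 arrays (signal of at least 440) were kept, the brightest per gene, which gave 2696 genes. The number of arrays limits the precision.

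Groups came from the sample titles. The main model, in limma 3.58.1 under R 4.3.3, held duration and cohort over the 36 arrays of 72SD and 24SD, with moderated variances from eBayes. Separate fits covered each cohort, duration by cohort, duration in SD minus duration in NES, and both durations against HC over 53 arrays. All tests were two-sided, with Benjamini-Hochberg adjustment over all genes tested and a threshold of 0.05. The main model alone was tested on simulated data, with independent normal noise for the 36 arrays.

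The members and the 47 gene lists were chosen with earlier results of these data known. Genes were named by a rule: the 12 of smallest p in each direction with the same sign in each cohort, any called gene, the 5 of smallest p for duration by cohort and for SD against NES, 2 to 4 members of smallest p of a list, the genes past the F-test against HC, and Homer1, Ifrd1 and Fkbp4. Other members, and Ttr and Dcn, were named after their values were seen. Tried as alternatives were other normalizations, floors, filters and variance models, cohort left out, HC added, arrays left out, each cohort alone and the methods' analysis of variance. Only 72SD and 24SD arrays were searched for values far from their group.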

Additional observations from a re-analysis of the deposited data

Results flagged for a closer look

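Among 42 genes and both 3′/5′ ratios, in the 3 groups of 8 arrays, 7 of 132 extremes lay far from the rest of their group by Dixon's criterion, which chance passes for about 1 in 20 groups. In 24SD of cohort 2, array 30 had the highest log2 signal of Tnfsf13 (11.32, next 10.99), the lowest of Ddx46 (10.40, next 10.74) and the highest GAPDH 3′/5′ ratio (1.18, next 1.09). In 72SD of cohort 1, array 36 had the highest Tnxa-ps1 (10.18, next 9.57) and the lowest Magt1 (7.33, next 8.52), and array 37 the highest Adgrl3 (9.88, next 9.54). In 24SD of cohort 2, array 34 had the lowest Bag6 (10.10, next 10.48).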

How the results depend on the processing

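The count of 0 called genes held with quantile normalization or centring, with a floor of 50, over all signals or only their upper 40%, over every probe set, with cohort left out, with HC arrays added, with robust eBayes and in each cohort alone, and for the tests within cohorts, by cohort and against NES. Array weights gave 1 called gene (adjusted p = 0.00512), and the methods' analysis of variance gave 2 after removal of values over 2 SD from their group mean. Leaving out single arrays gave 0 to 1 called genes and 86 to 148 genes at an unadjusted p under 0.05, in place of 112. That last count was 202 with no signal filter (4736 genes tested), 326 over every probe set (7006 tested), 45 with cohort left out and 259 in the analysis of variance with removal. Removing values far from their own group mean narrows the spread within groups. The 2 calls and the count of 259 can therefore be raised by the removal itself. Some signs were reversed. With cohort left out Tac3 was at 0.00 (0.00198) and Homer1 at 0.0298. In cohort 1 alone Mmp14 was at -0.00296, Homer1 at 0.10 and Ndrg2 at -0.00334. In cohort 2 alone Il6r was at 0.0280, Tac3 at 0.0409 and Dcn, at -0.48 over both cohorts, at 0.21. Without single arrays Homer1 ran from -0.0284 to 0.00633. All Homer1 values in this section are for its brightest probe set. All medians of lists moved by less than the spread between single arrays. That spread is wider than the error of a difference between groups, so a small median could change sign within it. For immediate early genes the median was 0.02 over both cohorts, 0.11 in cohort 1 and -0.05 in cohort 2. Of 24 leading genes none changed sign under these alternatives. For each cohort alone this was fixed in advance, because the same sign in both cohorts was required when the genes were chosen. They were also chosen for small p on the same arrays, so the other alternatives were a weak check of their signs. No paired analysis was possible because the subject numbers of the groups are all different. At 36 arrays a median SE of 0.07 limits what can be seen for differences under about 0.25 on the log2 scale. Larger differences could be missed as well, since the 24 leading genes, with differences up to 0.46 in size, did not pass the adjusted test.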
